A study of Mus musculus with 14 samples.

Results

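The nuclear-encoded subunits of oxidative phosphorylation were followed in hippocampal RNA of Gsdmd knockout and wild-type mouse pups. Rows of the deposited gene table were taken by name when their symbol began with Nduf and a subunit letter and number, was Sdha to Sdhd, or began with Uqcr, with Cox and a number from 4 to 8, or with Atp5. Of 36118 rows, 97 met the name rule. Of these, 8 carried a pseudogene mark (-ps) and 7 others had fewer than 10 counts in at least 1 library, which left 82 members. By name, 38 belonged to complex I, 4 to complex II, 8 to complex III, 15 to complex IV and 17 to complex V. The rule itself uses no measured difference, but the members were chosen with earlier results of these data known. The name rule is not a structural census: Ndufa4 was counted under complex I although its protein sits in complex IV, Cox7a2l is a supercomplex factor, and Ndufb1-ps was left out although RefSeq lists the same gene as protein coding. RefSeq names Atp5s as Dmac2l, and no principal coding transcript was found for Ndufb4c.

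Oxidative phosphorylation passes electrons from NADH and succinate through complexes I to IV to oxygen and uses the proton gradient so formed to make ATP at complex V. The mitochondrial genome encodes the core of several of these complexes, and all remaining subunits, including the whole of complex II, are read from nuclear genes and imported. Neurons of the hippocampus depend on the pathway for ion pumping, and several complex IV subunits exist as paralogues with different tissue preference. The nuclear subunit genes are known to be served by shared factors such as NRF1, GABP and YY1 and by the coactivator PGC-1α, the product of Ppargc1a.

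The study asked whether loss of gasdermin D, the pore-forming protein of pyroptosis, alters brain injury by high oxygen in newborn mice. All pups were C57BL/6N by the study's methods (C57/BL6 in the labels) and were killed on postnatal day 15, after room air (RA) or 85% O2 from postnatal day 1 to day 14. WT-RA and WT-O2 held 4 mice each, and KO-RA and KO-O2 held 3 mice each, with 1 library per mouse. Knockouts were homozygous, in every cell, for a Gsdmd allele that lacks part of an exon, and wild-type pups were described as their littermates. Mouse GSD408 was hyperoxic by its title and in room air by its treatment field, and the title was used. The knockout mice carried a separate run of mouse numbers (GSD489 to GSD496, against GSD398 to GSD408 for wild type), so genotype and this numbering cannot be told apart.

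Libraries summed to 27272270 to 28257496 estimated counts, of which the 82 members took 0.753% to 0.89%. Gsdmd itself was low throughout, with 41 to 63 estimated counts in wild-type libraries and 22 to 42 in knockout libraries, which overlapped; counts from outside the deleted stretch of the transcript remain possible. The hippocampal neuron markers were present in every library, with a summed level of 687 to 1078 CPM (counts scaled to a common library size by TMM) in wild-type and 1328 to 1665 CPM in knockout mice. Markers of neighbouring striatum were also present, at 498 to 1032 CPM in wild-type and 247 to 345 CPM in knockout libraries. In bulk RNA, fewer cells of a type and less RNA per cell cannot be told apart. A gene was called changed at a log2 fold change of at least 0.32 in either direction, an unadjusted p below 0.05 and a Benjamini-Hochberg q below 0.1 over 16637 genes in edgeR's quasi-likelihood test. All 82 members were among the genes tested.

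Start-site sequences were read for motifs of factors known to serve these genes, which a minority of members held. RefSeq windows (GRCm38.p6, 250 bases before to 50 bases after the start) were held for 66 of the 82 members, and 24 of these held at least 1 of the motifs GCGCATGC (NRF1), CCGGAAGT (GABP) and AAGATGGC (YY1) on either strand. GCGCATGC stood in 10 members (15.2%, against 3.05% of 27025 genes), CCGGAAGT in 5 (7.58%, against 4.31%) and AAGATGGC in 10 (15.2%, against 3.19%). Upstream stretches free of annotated exons are shown for 3 members with such a match and for Cox7b, the member with the smallest p under hyperoxia in the knockout, whose window held none of the 3 motifs. Capitals mark the matches. Cox6a1 lies upstream of its start at chr5:115348982-115349129 (minus strand), Ndufa6 at chr15:82354323-82354541 (minus strand), Uqcr11 at chr10:80406831-80407071 (minus strand) and Cox7b at chrX:106015450-106015699 (plus strand).
Cox6a1: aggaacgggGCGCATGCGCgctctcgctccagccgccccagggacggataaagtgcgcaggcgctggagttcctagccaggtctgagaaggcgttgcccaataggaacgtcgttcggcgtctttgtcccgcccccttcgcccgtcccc
Ndufa6: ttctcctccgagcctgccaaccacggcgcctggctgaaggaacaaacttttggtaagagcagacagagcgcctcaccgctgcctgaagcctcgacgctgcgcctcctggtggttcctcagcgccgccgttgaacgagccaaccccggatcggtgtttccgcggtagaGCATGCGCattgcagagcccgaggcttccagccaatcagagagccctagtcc
Uqcr11: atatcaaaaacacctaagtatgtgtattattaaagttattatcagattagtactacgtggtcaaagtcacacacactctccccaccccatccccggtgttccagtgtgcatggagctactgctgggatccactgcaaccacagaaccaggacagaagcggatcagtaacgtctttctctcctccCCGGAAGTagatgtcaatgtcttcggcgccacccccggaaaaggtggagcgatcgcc
Cox7b: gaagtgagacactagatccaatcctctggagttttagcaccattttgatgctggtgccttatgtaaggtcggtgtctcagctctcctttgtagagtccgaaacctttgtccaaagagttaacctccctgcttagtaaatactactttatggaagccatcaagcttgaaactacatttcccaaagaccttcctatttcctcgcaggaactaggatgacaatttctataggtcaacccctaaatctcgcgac
In Cox6a1 the capital run holds GCGCATGC on each strand, in 2 overlapping occurrences. Ndufa6 held the same NRF1 letters read on the other strand, and Uqcr11 held the GABP letters here. The window of Uqcr11 also held an NRF1 match, which lay outside the stretch shown. A match is a description of letters and says nothing of binding in these mice.

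Subunit mRNAs were abundant and steady between mice. The median member stood at 69.1 CPM, against 17.8 CPM for all genes tested, and the median SD of log2 CPM between mice of the same group was 0.103 for members and 0.148 for all genes. Per kilobase of the principal transcript (genes named here by level were chosen after their values were seen), the highest levels were those of Cox8a (612 CPM per kb) and Cox6a1 (518 CPM per kb) in complex IV and of Atp5b, the catalytic β subunit of ATP synthase (427 CPM per kb). Complex II, the succinate dehydrogenase that also serves the citric acid cycle, had its 4 members between 22.6 CPM per kb (Sdhc) and 85.2 CPM per kb (Sdhb). Within complex III, values ran from 54.8 CPM per kb for Uqcrfs1, the Rieske iron-sulfur protein, to 208 CPM per kb for Uqcr11. At least 300 counts in every library backed 76 members. Those nearest above the minimum of 10 counts were Cox7a1 (lowest library 14 counts), Cox4i2 (18) and Cox6b2 (22). Just below it were Cox7b2 (2 to 11 counts), Cox8b (1 to 10) and a further gene ID named Atp5o (lowest library 0).

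**Figure D1:**
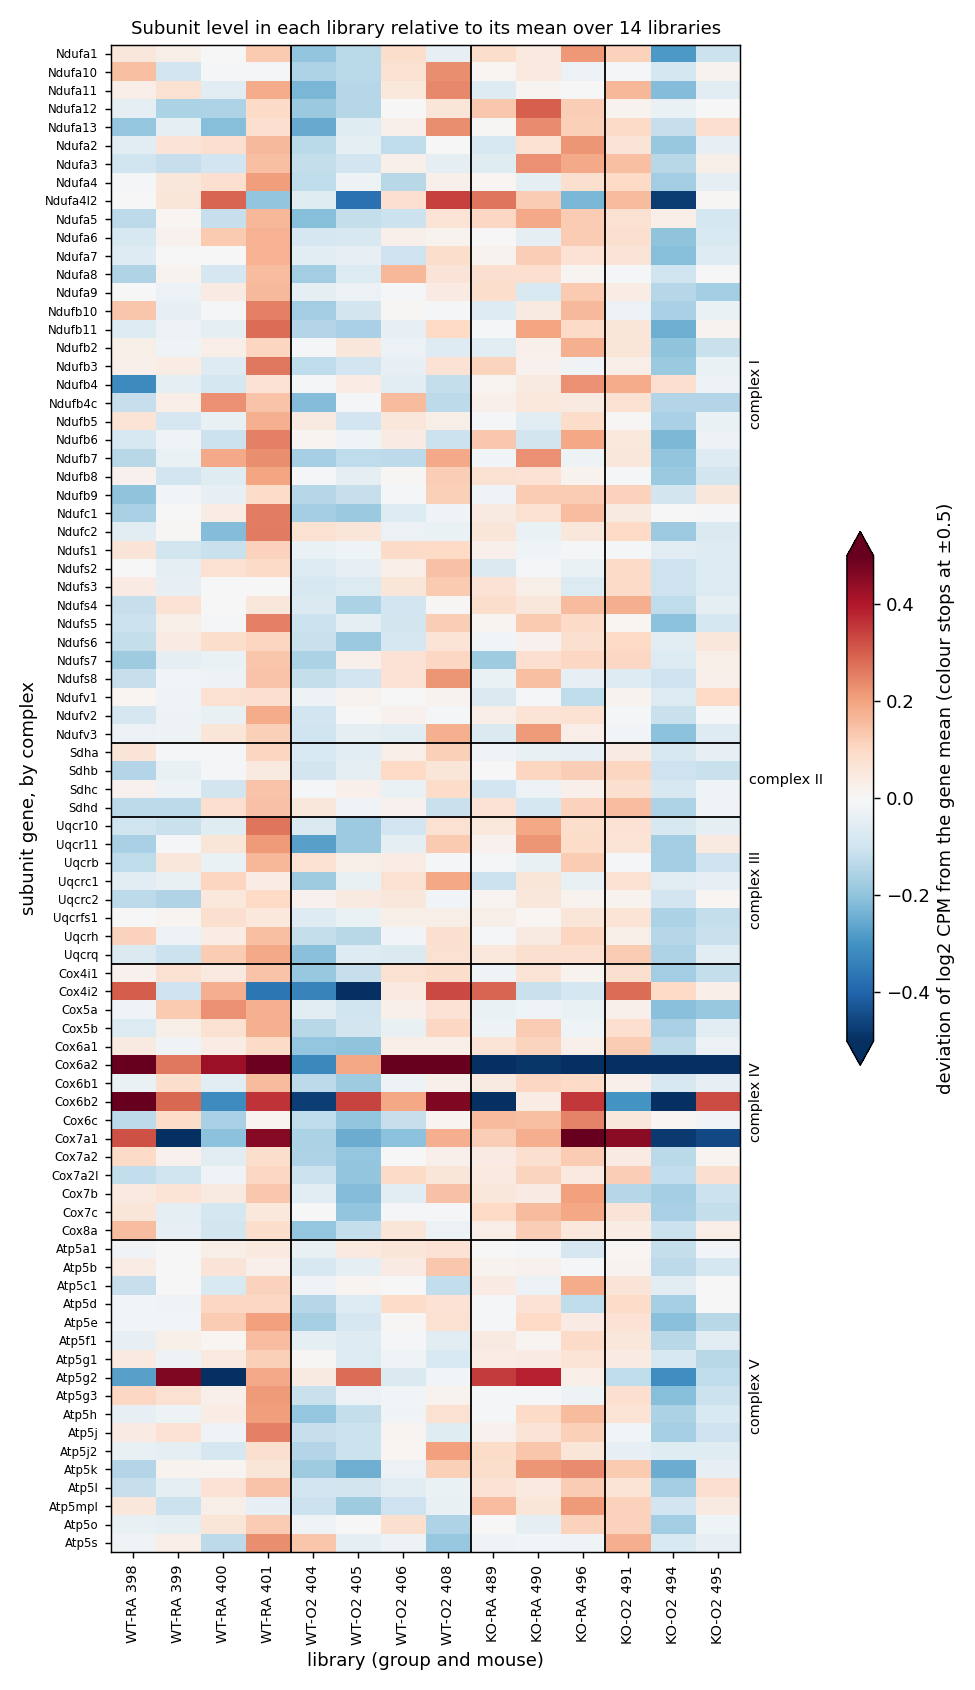
Deviation of log2 CPM of each of the 82 subunit genes (rows, by complex) from its own mean over the 14 libraries (columns, by group and mouse), with red above and blue below that mean and colours stopping at ±0.5. The column of WT-RA mouse GSD401 is mostly red, that of KO-O2 mouse GSD494 mostly blue, and Cox6a2 is the row that separates the genotypes.

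Loss of Gsdmd went with a lower level of Cox6a2, the heart and muscle isoform of cytochrome c oxidase subunit 6A, which in brain is known from fast-spiking interneurons. In WT-RA mice Cox6a2 (ENSMUSG00000030785) stood at 14.95, 8.88, 9.96 and 10.4 CPM, and in KO-RA mice at 4.31, 5.25 and 4.3 CPM. In WT-O2 mice it stood at 5.9, 8.46, 12.5 and 14.2 CPM, and in KO-O2 mice at 5.19, 4.77 and 4.84 CPM. Every knockout library lay below every wild-type library. The mean was 11.1 ± 2.68 CPM (SD, n = 4) in WT-RA against 4.62 ± 0.543 CPM (SD, n = 3) in KO-RA, and 10.3 ± 3.78 CPM (SD, n = 4) in WT-O2 against 4.93 ± 0.226 CPM (SD, n = 3) in KO-O2.

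The log2 fold change of Cox6a2 was -1.26 (SE 0.26, edgeR adjusted p = 0.00636) in KO-RA vs WT-RA and -1.06 (SE 0.25, edgeR adjusted p = 0.0232) in KO-O2 vs WT-O2. Averaged over both exposures it was -1.16 (95% interval -1.54 to -0.77, edgeR adjusted p = 0.000465). Cox6a2 was the only member called in these comparisons, 1 of 82 in each, where 10.4% of all genes tested were called in KO-RA vs WT-RA, 6.86% in KO-O2 vs WT-O2 and 12% over both exposures. The share of members called (1.22%) was thus below the background in all 3. Mice of both genotypes overlapped in Cox6a2 between exposures, with log2 changes of -0.10 (95% interval -0.58 to 0.37) in WT-O2 vs WT-RA and 0.09 (-0.49 to 0.68) in KO-O2 vs KO-RA. The interaction was 0.20 (-0.56 to 0.95).

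Its paralogue Cox6a1, the isoform found in most tissues, carried nearly all subunit 6A mRNA. Cox6a1 stood at 304, 291, 303 and 315 CPM in WT-RA, 258, 256, 302 and 302 CPM in WT-O2, 310, 319 and 300.2 CPM in KO-RA, and 322, 269 and 289 CPM in KO-O2. These groups overlapped, and the log2 change with genotype was 0.03 (95% interval -0.13 to 0.19) in room air and 0.07 (-0.09 to 0.23) in hyperoxia. Of the counts of the pair, Cox6a2 made up 2.96% to 4.69% in WT-RA, 2.23% to 4.5% in WT-O2, 1.37% to 1.62% in KO-RA and 1.59% to 1.74% in KO-O2. The longest identical run between their transcripts was 12 bases.

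Markers of other regions moved with genotype beside Cox6a2, and their part in its difference was not tested. Of 10 striatal markers, 9 were called lower in the knockout in each exposure. Of 10 thalamic markers, 5 were called lower in each exposure, and Shox2, a thalamic transcription factor, reached 27 CPM in wild type and at most 0.179 CPM in knockout. All 10 oligodendrocyte markers were called lower in room air and 6 in hyperoxia, where all 10 had a negative log2 change, with a sum of 5183 to 20660 CPM in wild type and 3530 to 6198 CPM in knockout.

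Among 9 genes of inhibitory neurons, parvalbumin cells included, 3 were called lower in KO-RA (Pvalb, Gad2 and Slc32a1) and 2 in KO-O2 (Gad2 and Slc32a1). Pvalb stood at 8.76 to 30 CPM in wild type and at 9.43 to 11.3 CPM in knockout, and these ranges overlapped. Of 6 muscle and brown fat genes tested, Cidea alone was called, higher in the knockout in each exposure. The 3 wild-type libraries highest in Cox6a2 (WT-RA mouse GSD398, WT-O2 mouse GSD408 and WT-O2 mouse GSD406) were also the 3 highest in Shox2, at 27, 21.5 and 11.3 CPM. WT-RA mouse GSD400 had Shox2 at 0.177 CPM, within the knockout range, and Pvalb at 8.76 CPM, below it, with Cox6a2 at 9.96 CPM and the sum of the striatal markers at 733 CPM, both above every knockout library. Hippocampal neuron markers went the other way, with 9 of 10 called higher in KO-RA and 5 of 10 in KO-O2.

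**Figure D2:**
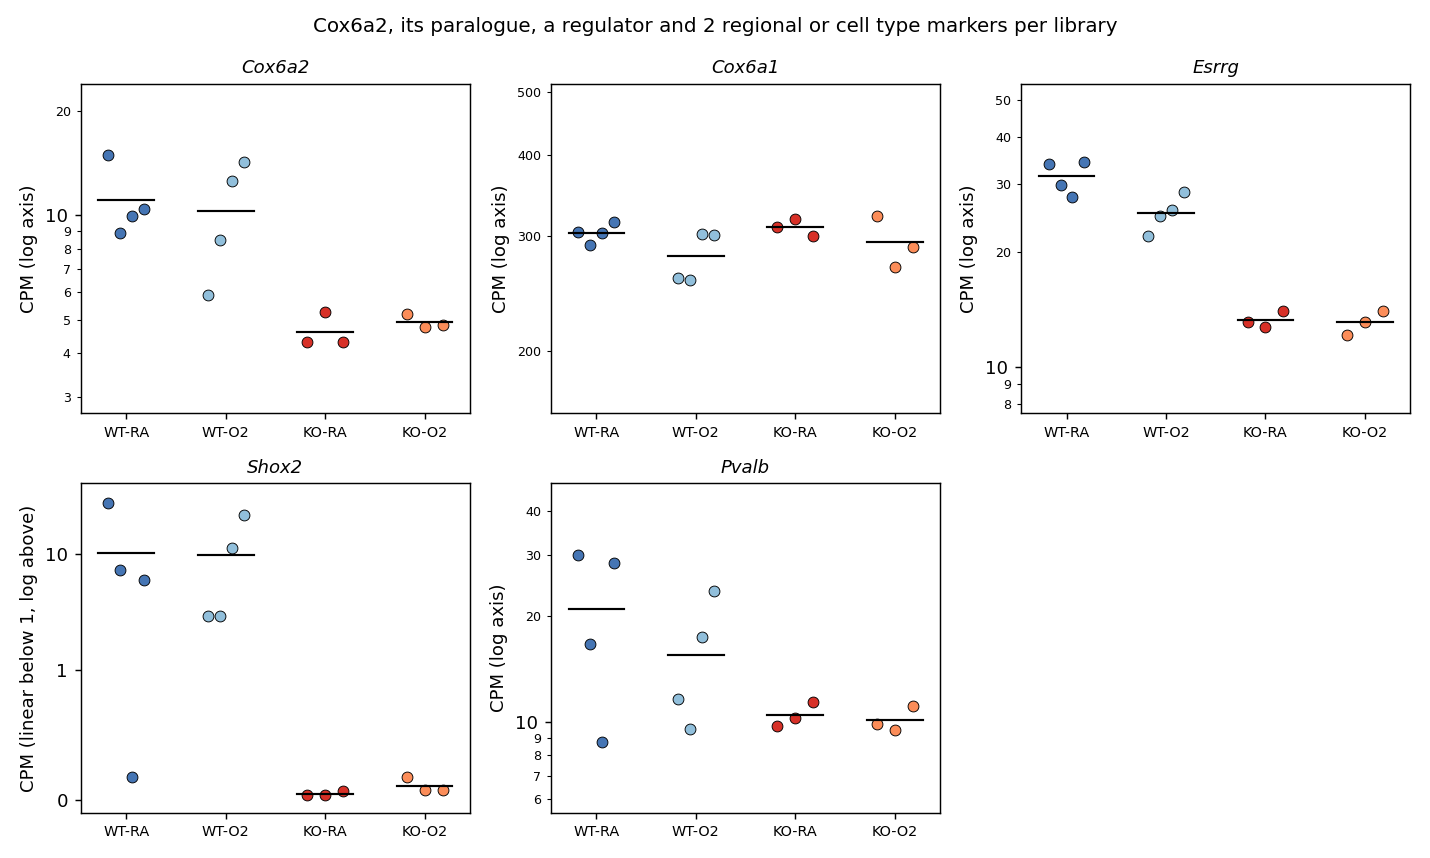
CPM of Cox6a2, Cox6a1, Esrrg, Shox2 and Pvalb in each library by group, with 1 point per mouse and a line at the group mean, on log axes (Shox2 is linear below 1). Knockout points lie below all wild-type points for Cox6a2 and Esrrg, and overlap wild type for Cox6a1 and Pvalb and, through WT-RA mouse GSD400 alone, for Shox2.

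Another 4 members had an adjusted p below 0.1 with smaller changes that did not reach the fold threshold. Cox6c, a small structural subunit of complex IV, stood at 141, 164, 138 and 156 CPM in WT-RA and 172, 171 and 183 CPM in KO-RA. Ndufa12, an accessory subunit of complex I, stood at 68.8, 63.7, 63.9 and 75.9 CPM in WT-RA and 78, 87.4 and 77.5 CPM in KO-RA. All 3 KO-RA libraries lay above all 4 WT-RA libraries for both genes. Their log2 changes were 0.23 (edgeR adjusted p = 0.0451) for Cox6c and 0.25 (edgeR adjusted p = 0.0479) for Ndufa12. Estimated counts were not whole (by more than 0.01), as when reads are shared between rows, in 14 libraries for Cox6c and 6 for Ndufa12. The size of any shared part was not tested. Cox6c missed the threshold without KO-RA mouse GSD489 (adjusted p = 0.101) or GSD496 (0.135), and Ndufa12 without WT-RA mouse GSD399 (0.103) or KO-RA mouse GSD490 (0.199). With only these 2 groups in the edgeR fit, the adjusted p was 0.121 for Cox6c and 0.11 for Ndufa12. They were 2 of 82 members (2.44%) higher at this threshold in KO-RA vs WT-RA, where 5.87% of all genes were higher, and Cox6a2 was the 1 member lower, where 8.94% of all genes were lower.

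In hyperoxia neither was apart. Cox6c stood at 141, 134, 142 and 155 CPM in WT-O2 and 160, 155 and 153 CPM in KO-O2, with a log2 change of 0.12 (95% interval -0.02 to 0.27), and the change of Ndufa12 was 0.06 (-0.10 to 0.22). Averaged over both exposures, 3 members were higher with genotype at an adjusted p below 0.1, where 9.87% of all genes were. These were Cox6c (log2 change 0.18), Ndufa12 (0.15) and Atp5mpl, a small membrane subunit of ATP synthase (0.14, edgeR adjusted p = 0.0432). Ndufa12 missed that threshold without WT-O2 mouse GSD405, KO-RA mouse GSD490 or KO-O2 mice GSD491 or GSD495 (adjusted p 0.108 to 0.153), and Atp5mpl without KO-O2 mouse GSD491 (0.116).

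Lower over both exposures at that threshold were Cox6a2 and Cox5a, 2 of 82 members, where 14.1% of all genes were. Cox5a, a subunit that packs against the catalytic core of complex IV, stood at 99.3, 110, 118 and 114 CPM in WT-RA, 96.7, 93.8, 102 and 106 CPM in WT-O2, 98.3, 99.1 and 98.3 CPM in KO-RA, and 102, 86.9 and 88.1 CPM in KO-O2. Its groups overlapped in hyperoxia, and its log2 change over both exposures was -0.13 (95% interval -0.24 to -0.03, edgeR adjusted p = 0.0819). Leaving out any 1 mouse other than GSD398, GSD404, GSD405 or GSD491 took it past 0.1 (adjusted p 0.126 to 0.19).

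For the remaining members the genotypes were close. In KO-RA vs WT-RA, 52 of 82 members had a positive log2 change and the median was 0.025, against -0.007 for all genes. In KO-O2 vs WT-O2, 34 were positive and the median was -0.018, against -0.009 for all genes. Without WT-O2 mouse GSD406, WT-O2 mouse GSD408 or KO-O2 mouse GSD494 the latter median was positive (0.006, 0.012 and 0.039). The 95% interval of the change lay within 0.32 of 0 on the log2 scale for 69 members in room air (38% of all genes) and 76 members in hyperoxia (40.5% of all genes). Members had smaller standard errors than all genes, with a median of 0.0769 against 0.112 in both comparisons. By complex the median log2 changes ran from -0.005 (complex II) to 0.03 (complex IV) in room air. In hyperoxia they ran from -0.03 (complex II) to 0.008 (complex IV). The member of smallest p in complex II was Sdhb, the iron-sulfur subunit, in room air (log2 change 0.11, 95% interval -0.04 to 0.26) and Sdha, the flavin subunit, in hyperoxia (-0.03, -0.16 to 0.09). In complex III these were Uqcr10 in room air (0.11, -0.08 to 0.30) and Uqcrb in hyperoxia (-0.12, -0.27 to 0.02), and in hyperoxia Ndufb8, an accessory subunit of complex I, stood at -0.11 (-0.27 to 0.04).

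**Figure D3:**
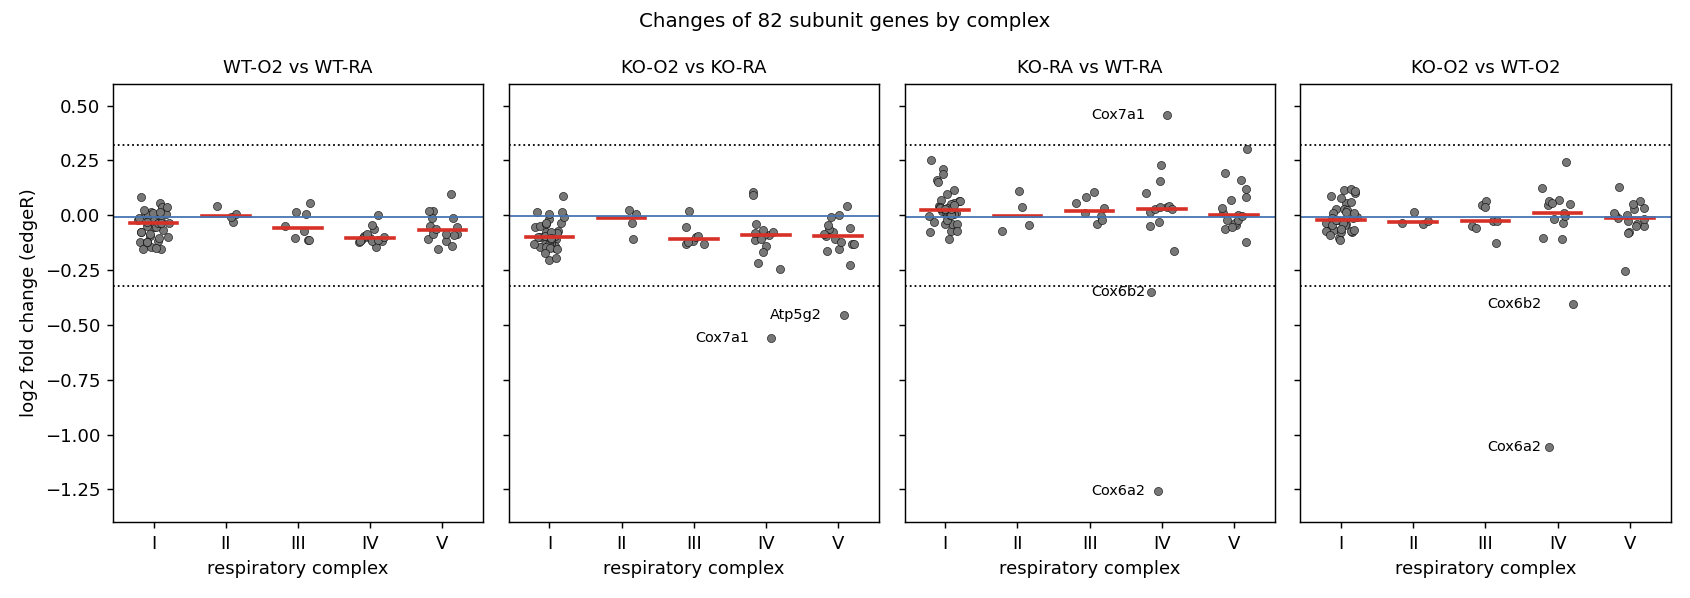
Log2 fold change (edgeR) of the 82 subunit genes by complex in the 4 group comparisons, with 1 point per gene, a red line at the median of each complex, a blue line at the median of all 16637 genes and dotted lines at ±0.32. Hyperoxia points lie mostly just below 0, and Cox6a2 lies at -1.26 and -1.06 in the genotype comparisons. The other genes named past a dotted line (Cox7a1, Cox6b2 and Atp5g2) were not called.

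Hyperoxia changed no single member past the thresholds in either genotype. In WT-O2 vs WT-RA, 0 of 82 members were called, where 0.643% of all genes were, and in KO-O2 vs KO-RA 0 of 82, where 0.012% were. Averaged over both genotypes, 0 of 82 were called, where 0.337% of all genes were. DESeq2 called 0 members in each of the 3 as well, where it called 1.86%, 0.0781% and 0.805% of all genes. At an unadjusted p below 0.05 in edgeR, 4 members (4.88%) were lower in wild type, where 6.5% of all genes were, and 6 members (7.32%) were lower in the knockout, where 2.57% were. Over both genotypes, 14 members (17.1%) were lower, where 6.14% of all genes were. No member was higher at that p, where the share of all genes was 5.69% in wild type, 2.29% in the knockout and 5.64% over both.

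The small changes leaned in a common direction. In wild type 64 of 82 members had a negative log2 change, with a median of -0.061 against -0.006 for all genes. In the knockout 72 had one, with a median of -0.097 against -0.002. Complex IV had a median of -0.103 in wild type and -0.092 in the knockout, complex I -0.036 and -0.098, complex III -0.059 and -0.109, and complex V -0.065 and -0.095. Complex II was nearest to 0, at -0.003 and -0.014, with 2 of its 4 members negative in each. All members were measured in the same libraries, so these counts are no count of independent events.

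Across mice the lean was of the same order as the spread. The median member deviated from its own mean log2 CPM by -0.035, -0.015, -0.001 and 0.143 in the 4 WT-RA libraries and by -0.111, -0.075, 0.002 and 0.065 in the 4 WT-O2 libraries. It deviated by 0.018, 0.059 and 0.083 in KO-RA and by 0.066, -0.144 and -0.042 in KO-O2. Exposure groups overlapped in both genotypes, in the knockout through KO-O2 mouse GSD491 alone. The SD of these deviations within groups was 0.0789, against median changes of -0.061 in wild type and -0.097 in the knockout. WT-RA mouse GSD401 stood highest, with 4 of 82 members below their own mean, and KO-O2 mouse GSD494 lowest, with 78 below. Without WT-RA mouse GSD401 the wild-type median change was -0.024, without WT-O2 mouse GSD405 it was -0.04 and without WT-O2 mouse GSD408 -0.092. The knockout median was -0.047 without KO-O2 mouse GSD494 and -0.15 without KO-O2 mouse GSD491. With mouse GSD408 counted as room air, the wild-type median was -0.101 and 71 members were negative.

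Other short genes moved with the members, and their part in the lean was not tested. Of 81 members with a known principal transcript, 52 were at most 1000 bases long. Among 932 other genes of that length, the median log2 change with hyperoxia was -0.036 in wild type and -0.054 in the knockout, against -0.095 and -0.116 for the 52 short members and -0.015 and -0.065 for the 29 longer members. In single libraries the other short genes deviated most in WT-RA mouse GSD401 (0.097) and KO-O2 mouse GSD494 (-0.067), also the highest and lowest libraries for the members. Other libraries came close, with 0.083 in KO-RA mouse GSD490 and -0.062 in both WT-RA mouse GSD398 and WT-O2 mouse GSD404. There the members deviated by 0.059, -0.035 and -0.111. Oligodendrocyte markers were also lower in median with hyperoxia (-0.617 in wild type and -0.08 in the knockout, none of 10 called), as were choroid plexus markers (-0.278 and -0.448, none of 10 called), and their part was not tested either. The choroid plexus sum varied widely between knockout mice of the same group. It ran from 41.51 CPM (mouse GSD489) to 3343 CPM in KO-RA and from 115.4 CPM (mouse GSD494) to 3467 CPM in KO-O2. Members with any of the 3 start-site motifs had a median of -0.076 in wild type and -0.095 in the knockout (n = 24), and those with none had -0.055 and -0.101 (n = 42).

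Of all members, Cox7b had the smallest unadjusted p under hyperoxia in the knockout. Cox7b, a small subunit of complex IV, stood at 94.4, 93.3 and 105 CPM in KO-RA and 82.2, 80.5 and 84.2 CPM in KO-O2. Its knockout groups did not overlap, and its log2 change was -0.24 (95% interval -0.41 to -0.08, edgeR adjusted p = 0.861). In wild type Cox7b stood at 93.9, 95.2, 93.5 and 99.6 CPM in room air and 87.3, 78.1, 87.2 and 100.5 CPM in hyperoxia, with a change of -0.11 (-0.26 to 0.03). The wild-type groups overlapped through WT-O2 mouse GSD408.

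Atp5j, coupling factor 6 of the ATP synthase stalk, was the 1 of 82 members with a 95% interval below 0 in both genotypes. It stood at 69.8, 71.3, 66.9 and 80.6 CPM in WT-RA and 62.6, 62.9, 68.4 and 65.1 CPM in WT-O2. In the knockout it stood at 68.8, 70.8 and 73.7 CPM in room air and 67.2, 60.4 and 63.1 CPM in hyperoxia. Its wild-type groups overlapped and its knockout groups did not. The log2 change was -0.16 in each genotype (95% intervals -0.29 to -0.03 and -0.31 to -0.01), with edgeR adjusted p values of 0.309 and 0.997.

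Ndufa4 had the smallest p of the genes counted under complex I in wild type (log2 change -0.15, 95% interval -0.29 to -0.01), and Ndufa12 in the knockout (-0.19, -0.37 to -0.02). Cox5a had a log2 change of -0.15 (-0.29 to -0.01) in wild type and -0.09 (-0.25 to 0.07) in the knockout. Uqcrh, the hinge protein of complex III, had -0.11 (-0.25 to 0.02) and -0.12 (-0.28 to 0.03), and Sdhb had 0.04 (-0.10 to 0.18) and -0.11 (-0.27 to 0.05). None of these passed the adjusted threshold. The 95% interval lay within 0.32 of 0 for 75 members in wild type (47.8% of all genes) and for 61 in the knockout (43.9% of all genes). Members had smaller standard errors than all genes, with medians of 0.0711 against 0.103 in wild type and 0.0822 against 0.119 in the knockout. The median absolute log2 change of members was 0.0672 in wild type (0.0986 for all genes) and 0.0976 in the knockout (0.0894 for all genes).

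**Figure D4:**
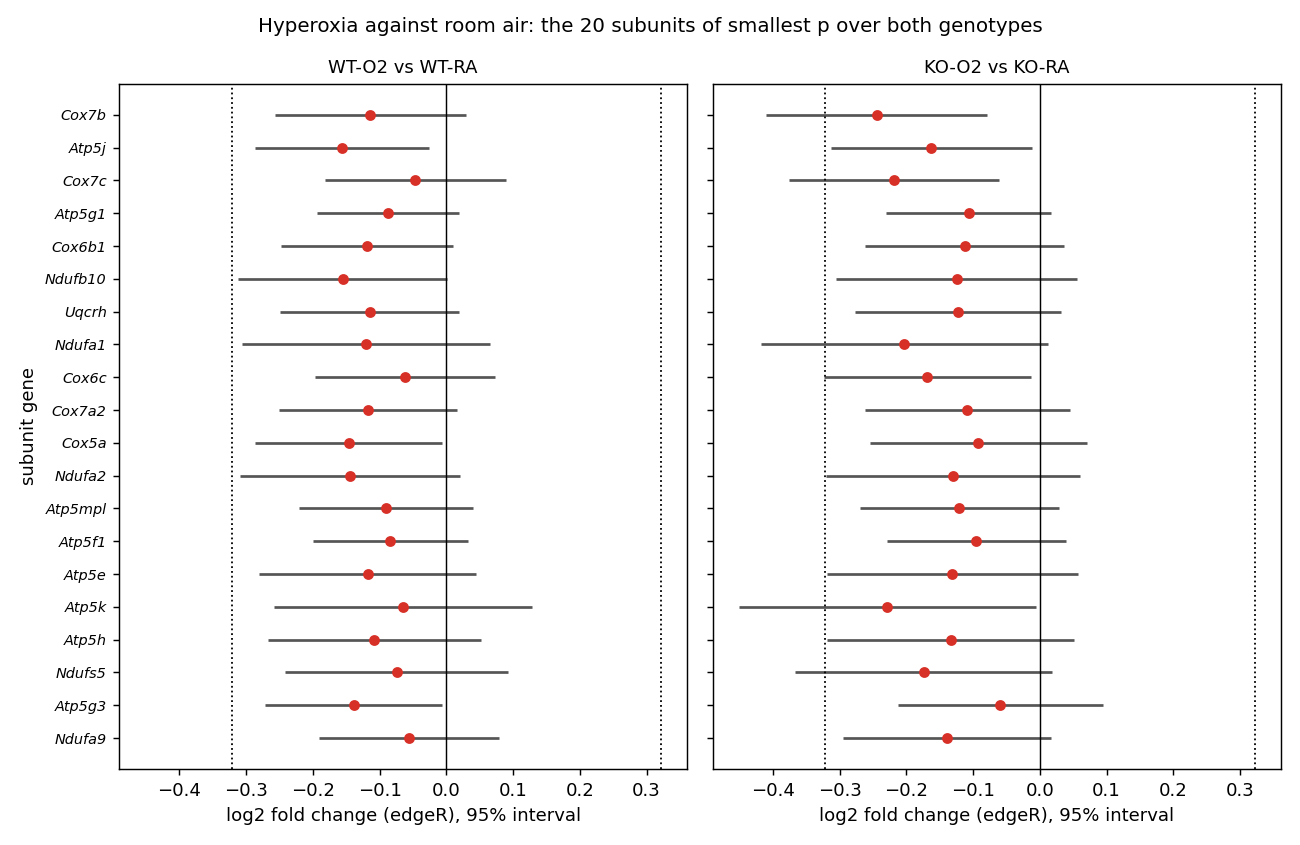
Log2 fold change with 95% interval (edgeR) under hyperoxia in wild type (left) and knockout (right) for the 20 members of smallest unadjusted p over both genotypes, with dotted lines at ±0.32. All points lie below 0, and for every gene but Atp5j the interval crosses 0 in at least 1 genotype. The genes were picked by the average of the effects shown, so their shared sign comes in part from that choice.

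The response to hyperoxia was not shown to differ between genotypes for any member. The interaction called 0 of 82 members in edgeR and in DESeq2, and edgeR called 0% of all genes. At an unadjusted p below 0.05, 0 members had a lower and 0 a higher interaction, where 2.1% and 1.94% of all genes had. The 95% interval of the interaction lay within 0.32 of 0 for 50 members (27% of all genes). For the other 32 it reached past 0.32, so differences of that size were not excluded for them. The median SE of the interaction was 0.109 for members and 0.158 for all genes.

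Tissue isoforms of the same subunit kept their order in every library. Cox4i1, the common form of subunit 4, stood at 299 CPM per kb, 217-fold above Cox4i2, the form known to be induced by low oxygen. Cox4i2 ranged from 0.753 to 1.24 CPM in WT-RA, 0.645 to 1.26 in WT-O2, 0.909 to 1.23 in KO-RA and 1.01 to 1.22 in KO-O2, and all groups overlapped. Cox6b1 stood 103-fold above the testis form Cox6b2, Ndufa4 69.2-fold above Ndufa4l2, and Cox7a2 49-fold above the muscle form Cox7a1, each per kb. Cox6a1 stood 43.3-fold above Cox6a2 on the same scale.

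None of these minor forms other than Cox6a2 was called. Cox7a1 stood at 1.2, 0.493, 0.813 and 1.33 CPM in WT-RA and 1.04, 1.08 and 1.81 CPM in KO-RA, with a log2 change of 0.46 (95% interval -0.27 to 1.19), and its change with hyperoxia in the knockout was -0.56 (-1.35 to 0.23). Cox6b2 had a log2 change with genotype of -0.35 (-1.10 to 0.39) in room air and -0.40 (-1.16 to 0.35) in hyperoxia. Groups overlapped in each case, and the intervals of Cox6b2 include changes past the fold threshold in both directions and those of Cox7a1 in 1 direction each. The 3 genes for the identical mature c subunit of ATP synthase differed in level, with Atp5g3 at 160 CPM per kb, Atp5g1 at 59 and Atp5g2 at 13.5. Before division by length, Atp5g1 stood above Atp5g3, at 157.9 against 115.3 CPM. The lengths used were 2675.5 bases for Atp5g1 and 718.5 bases for Atp5g3, so their order depends on this scale. Atp5g2 was the most variable of the 3, at 6.35, 10.7, 4.33 and 8.79 CPM in WT-RA. Its change of -0.46 with hyperoxia in the knockout (-0.96 to 0.05) was not called. Ndufb4 and Ndufb4c share an identical run of 390 bases, so how counts were split between them is uncertain.

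**Figure D5:**
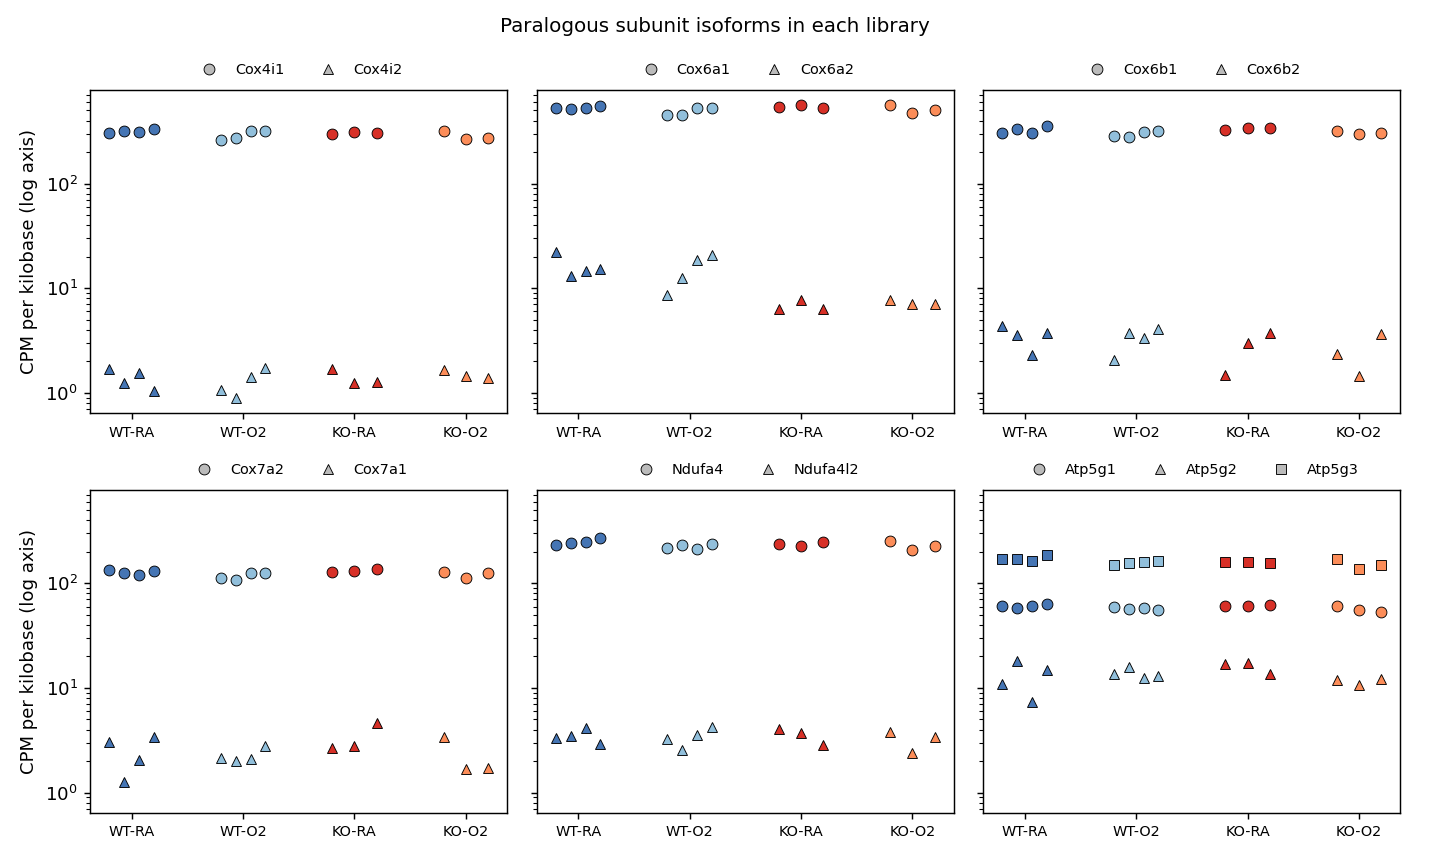
CPM per kilobase of principal transcript (log axis) for 6 groups of paralogous subunits in each of the 14 libraries, with 1 symbol per mouse coloured by group. On this scale the order of isoforms is the same in every library, and Cox6a2 is the form whose knockout points all lie below the wild-type points. Without division by length, Atp5g1 lies above Atp5g3.

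Few genes around the subunits were called. Of all genes tested, 10.4% were called in KO-RA vs WT-RA and 6.86% in KO-O2 vs WT-O2. With hyperoxia 0.643% were called in wild type and 0.012% in the knockout, so no call there says little about lists of this size. Of 56 assembly factors tested, Cmc2, needed for complex IV assembly, was called lower in KO-RA vs WT-RA (log2 change -0.41, edgeR adjusted p = 0.0675), none was called in KO-O2 vs WT-O2, and none was called with hyperoxia in either genotype. None of 21 genes of mitochondrial mass (import, carriers, chaperones and citric acid cycle) and none of 5 subunits or electron carriers outside the name rule, which include Cyc1 and Cycs, was called in the 4 group comparisons. Of 15 regulators of mitochondrial genes, Esrrg, a nuclear receptor that activates them, was called lower with genotype in both exposures. Esrrg stood at 27.9 to 34.4 CPM in WT-RA, 22 to 28.6 CPM in WT-O2, 12.7 to 14 CPM in KO-RA and 12.1 to 14 CPM in KO-O2, with log2 changes of -1.25 in room air and -0.95 in hyperoxia (edgeR adjusted p of 1.79e-05 and 0.000122).

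Ppargc1a stood between 54.6 and 73.5 CPM in all libraries and was not called. Among the 13 mitochondrially encoded subunit mRNAs, mt-Nd3 of complex I was called lower with genotype, at 573 to 1043 CPM in wild type and 100.5 to 163 CPM in knockout. Most of the 13 leaned the other way, with 12 positive in KO-RA vs WT-RA (median log2 change 0.231) and 10 in KO-O2 vs WT-O2 (0.104). None was called higher. The summed share of mitochondrial mRNA was 6.68% to 10.3% of counts in wild type and 8.65% to 10.4% in knockout libraries.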

How the data were processed

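Hippocampal RNA of 14 mice was sequenced, with 1 library per mouse. Values as deposited are estimated counts for each gene, which the authors made with kallisto, and the submitters' processing notes also name GRCm39 and DESeq2 (tool versions are not given in the sources used here), and the study's methods name the build as mm_GRCm39_104 with tximport for gene summaries. In the deposited estimated counts, 41% to 43.2% of values were not whole (any fractional part as written, with no tolerance, over all rows of a library), and all were rounded. Columns of fold changes or p-values were not used. Gene IDs were paired with symbols for 35825 of 36118 rows.

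Counts were filtered with filterByExpr, scaled by TMM and fitted in edgeR 4.0.16 (R 4.3.3) with 1 coefficient for each of the 4 groups over all 14 libraries, and 7 contrasts were tested by quasi-likelihood with Benjamini-Hochberg adjustment over 16637 genes. CPM used the TMM-scaled library sizes. Genotype comparisons and exposure comparisons share groups, so they are not independent of each other. DESeq2 1.42.0, other scalings, filters, thresholds and sample sets, each mouse left out in turn and the other reading of mouse GSD408 were alternatives. The sum of Ndufb4 and Ndufb4c was an alternative chosen after seeing the data. The script was tested on simulated data. The members and gene lists were chosen with earlier results of these data known. Members were named when called with or without the fold threshold, when of smallest p in a complex and group comparison, as isoform groups, or as nearest to the count minimum, and context genes when called. Depth of 27272270 to 28257496 counts per library limits the precision of low genes only in part, since differences between mice add to counting error.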

Additional observations from a re-analysis of the deposited data

Results flagged for a closer look

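Uqcr10, a small subunit of complex III, stood at 68.87 CPM in WT-RA mouse GSD401 and at 53.01 to 54.84 CPM in the other 3 WT-RA mice. The gap of this library to its nearest neighbour was 0.885 of the range of the group, above Dixon's 95% critical value for 4 samples. It was the 1 such case among 58 sets of 4 values examined, where chance gives about 5% of sets. The sets held the named members and the median member deviation, in WT-RA and in WT-O2, and no other members were examined. Ndufb11, which was not examined, stood at 87.52 CPM in WT-RA mouse GSD401 and at 68.73 to 70.55 CPM in the other WT-RA mice. WT-RA mouse GSD401 was also the library with the fewest members (4 of 82) below their own mean.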

How the results depend on the processing

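Cox6a2 was called lower in the knockout under every alternative run. Its log2 change was -1.36 to -1.07 in KO-RA vs WT-RA (adjusted p 0.00163 to 0.0381) and -1.25 to -0.85 in KO-O2 vs WT-O2 (adjusted p 0.00314 to 0.0955) with each mouse left out, and -1.34 to -1.24 and -1.08 to -0.86 under the other alternatives. No member was called with hyperoxia or for the interaction under any of them. Without the fold threshold, 3 members were called in KO-RA vs WT-RA and 5 over both exposures, in place of 1, where 14.8% and 24% of all genes were. Of the members so added, Cox5a over both exposures had an adjusted p of 0.148 with mouse GSD408 as room air and 0.175 with no filter on low counts, and Ndufa12 had 0.112 with total library size. Sdha in KO-O2 vs WT-O2 (-0.03) was 0 with mouse GSD408 as room air and -0.07 to 0.01 with each mouse left out, positive without WT-O2 mouse GSD408; the cause was not tested. Median changes of the members stayed negative with hyperoxia (-0.101 to -0.024 in wild type, -0.15 to -0.047 in the knockout). The genotype medians were 0.011 to 0.06 in room air, and in hyperoxia took both signs, -0.069 to 0.039, as did the interaction, -0.084 to 0.025. With mouse GSD408 as room air, the count of all genes called for hyperoxia in wild type was 6 in place of 107. No paired analysis was made. Each mouse number occurs once, so littermates could not be matched by these numbers.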
